A study of Mus musculus with 12 samples.

Results

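The DNA replication genes described here are 42 genes chosen by name, whose proteins load, start, copy and supply the replication fork. A usable probe set measured all 42 of them, among 17097 genes in all. They were followed in cells of the mouse small intestine that had been isolated by their level of Mex3a, which encodes an RNA-binding protein, and of Lgr5, a receptor that marks stem cells of the crypt base. Within the Lgr5 High gate the cells were Mex3a High, Mex3a Low or Mex3a Neg, and the same 3 Mex3a gates were taken within Lgr5 Low. Each of the 6 populations had 2 arrays, 1 from each of the biological replicates MR793 and MR820, from untreated primary cells. The labels do not give strain, age, sex or genotype, how the levels of Mex3a and Lgr5 were read in the sort, or whether a replicate is 1 animal or a pool, so the replicate spread may be in part technical. With n = 2 for each population, the number of arrays limits the precision of every comparison.

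Replication is prepared in G1, when the origin recognition complex, Cdc6 and Cdt1 load the MCM helicase onto DNA, and starts in S phase, when Cdc45, the GINS complex and Mcm10 help to turn the helicase on. Polymerase alpha with its primase lays down primers, the clamp loader places the PCNA clamp, polymerases delta and epsilon copy the strands, and Fen1 and Lig1 join the Okazaki fragments. Many of these genes are transcribed under E2F factors as cells enter S phase. In the crypt, stem cells at the base and transit-amplifying cells above them divide, while differentiated cells have left the cycle.

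All values below are log2 expression values, on which a difference of 1 is 2-fold. Epcam, an epithelial adhesion molecule, read 11.97 to 12.43 on all 12 arrays, and Lgr5 read 9.00 to 10.21 on the Lgr5 High arrays, against 6.37 to 8.05 on the Lgr5 Low arrays. Mex3a read 5.44 to 6.35 and did not separate its gates on these arrays, so the Mex3a gates are taken from the labels. One array, from MR793 and the Mex3a High Lgr5 High cells, was unlike the rest and is called the outlying array. It correlated with the others at 0.896 to 0.916, against 0.971 to 0.996 among the other 11 arrays, and its 75th percentile was 7.36, against 7.67 to 7.74. Results that rest on it are given with it (12 arrays) and without it (11 arrays). Without it, Mex3a High Lgr5 High is 1 array, which is assumed to vary like the other populations, and the SE of its comparisons comes from those. That array is from MR820, so without a replicate block its differences from other populations also hold the shift between the replicates. The labels also name 3 array strips, and the strips of each comparison are given beside it.

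Promoter sequence of some members is shown first, to make the letters upstream of these genes visible. In the RefSeq windows of GRCm38.p6, which hold 250 bases before and 50 bases from the gene start on, 33 of the 42 members were found; Mcm4, Gins1, Gins2, Gins4, Prim2, Pole, Rfc2, Ccne2 and Tipin had no window in the table. The E2F motif searched was TTTNNCGC with each N a C or a G, the CCAAT box was CCAAT and the CHR element was TTTGAA, all on both strands. E2F matches can overlap each other where the motif is close to its own reverse complement. The 200 bases before the gene start follow for 5 members, 5′ to 3′ on the gene's strand, with E2F and CCAAT matches in capitals. Cdc6, Rrm2 and Rpa3 are among the members that passed a test below, while Mcm5 and Mcm6, helicase subunits not called in the 3 fits below, are shown for their several E2F matches.
Cdc6 (chr11:98907951-98908150, plus strand): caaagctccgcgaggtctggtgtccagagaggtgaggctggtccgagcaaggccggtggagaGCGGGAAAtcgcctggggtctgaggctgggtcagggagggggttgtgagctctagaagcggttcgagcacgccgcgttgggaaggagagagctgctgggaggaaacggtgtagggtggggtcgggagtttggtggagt
Rrm2 (chr12:24708054-24708253, plus strand): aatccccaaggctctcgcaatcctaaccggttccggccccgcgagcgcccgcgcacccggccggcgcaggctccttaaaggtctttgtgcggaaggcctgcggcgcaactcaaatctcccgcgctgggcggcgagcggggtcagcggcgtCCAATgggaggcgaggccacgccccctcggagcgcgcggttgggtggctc
Rpa3 (chr6:8259142-8259341, minus strand): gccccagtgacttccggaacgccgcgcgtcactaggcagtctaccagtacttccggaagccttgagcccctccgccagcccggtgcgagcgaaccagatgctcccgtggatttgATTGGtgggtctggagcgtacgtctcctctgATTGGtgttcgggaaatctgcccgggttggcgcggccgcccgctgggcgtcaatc
Mcm5 (chr8:75109309-75109508, plus strand): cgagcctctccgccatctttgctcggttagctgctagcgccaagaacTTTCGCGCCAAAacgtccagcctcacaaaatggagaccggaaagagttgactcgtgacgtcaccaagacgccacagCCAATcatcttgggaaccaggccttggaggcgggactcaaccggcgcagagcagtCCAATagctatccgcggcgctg
Mcm6 (chr1:128359706-128359905, minus strand): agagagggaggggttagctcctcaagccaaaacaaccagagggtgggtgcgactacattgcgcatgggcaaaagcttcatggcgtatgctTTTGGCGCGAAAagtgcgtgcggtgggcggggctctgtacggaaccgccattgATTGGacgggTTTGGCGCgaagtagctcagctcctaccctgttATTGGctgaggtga

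Cdc6 holds 1 E2F match and no CCAAT match in this stretch, and Rrm2 and Rpa3 hold no E2F match but 1 and 2 CCAAT matches. Mcm5 holds 2 overlapping E2F matches on opposite strands and 2 CCAAT matches. In Mcm6, 3 E2F matches stand upstream, of which the first and second overlap, beside 2 CCAAT matches. Shorter stretches show 1 E2F match of each of 4 further members, none called in those 3 fits, with that match alone in capitals.
Orc1 (chr4:108579411-108579450, plus strand): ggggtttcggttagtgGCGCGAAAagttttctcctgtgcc
Mcm7 (chr5:138172025-138172064, minus strand): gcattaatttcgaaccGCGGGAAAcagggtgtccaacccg
Pola1 (chrX:93632270-93632309, minus strand): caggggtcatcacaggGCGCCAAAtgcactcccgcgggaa
Uhrf1 (chr17:56304112-56304151, plus strand): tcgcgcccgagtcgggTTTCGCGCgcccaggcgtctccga

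An E2F match was found in 14 of the 33 members with a window, which is 42.4%, against 2.61% of the 27025 genes in the table. The CCAAT box was found in 22 of 33 members, which is 66.7%, against 41.1% of all genes, and the CHR element in 4 of 33, which is 12.1%, against 20.2%. Of the 20 E2F matches in members, 12 lay wholly before the gene start and 8 began at or after it, and the first base of a match lay between -185 and 39. A match is a run of letters and was not tested as a binding site.

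**Figure D1:**
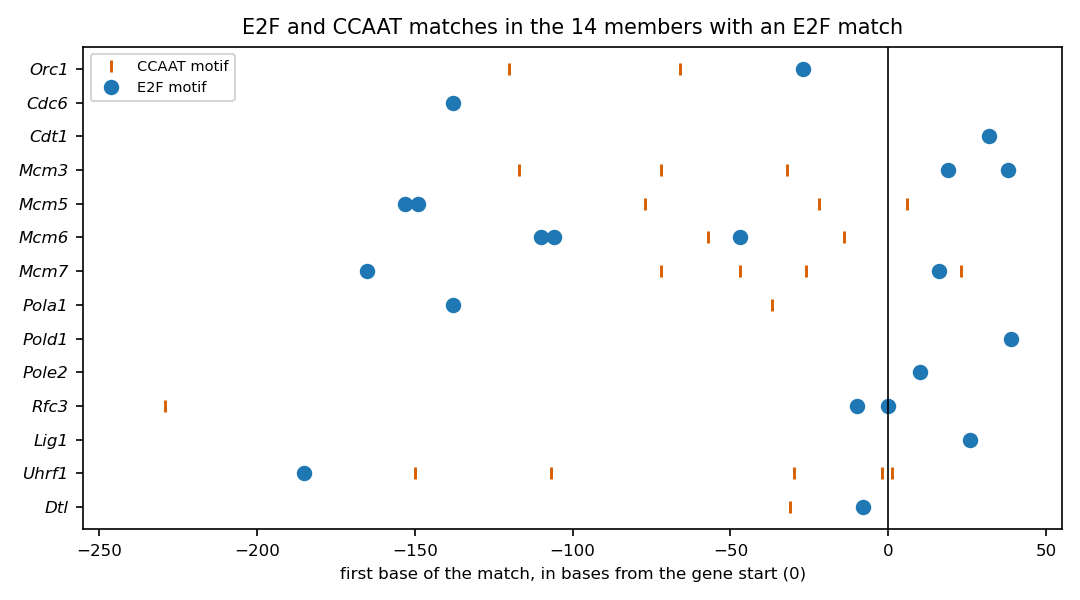
Position of E2F matches (circles) and CCAAT matches (bars) in the promoter windows of the 14 members that hold an E2F match; the x axis gives the first base of a match in bases from the gene start, and each row is a gene. E2F matches stand on both sides of the start, between -185 and 39.

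The replication genes were well measured. Over 11 arrays the mean value of 39 of the 42 lay above the median of all genes, 29 lay in the top 25% and 15 in the top 10%. The 3 members below the median were Orc1, an origin recognition subunit, with a mean of 5.59, Fen1, the flap endonuclease, with 6.38, and Ccne2, a cyclin E, with 4.19. Of these, Orc1 spanned 0.14 and Ccne2 0.34 over the 11 arrays. Cdc6 had the widest span among members, 1.46, between 6.76 and 8.22.

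**Figure D2:**
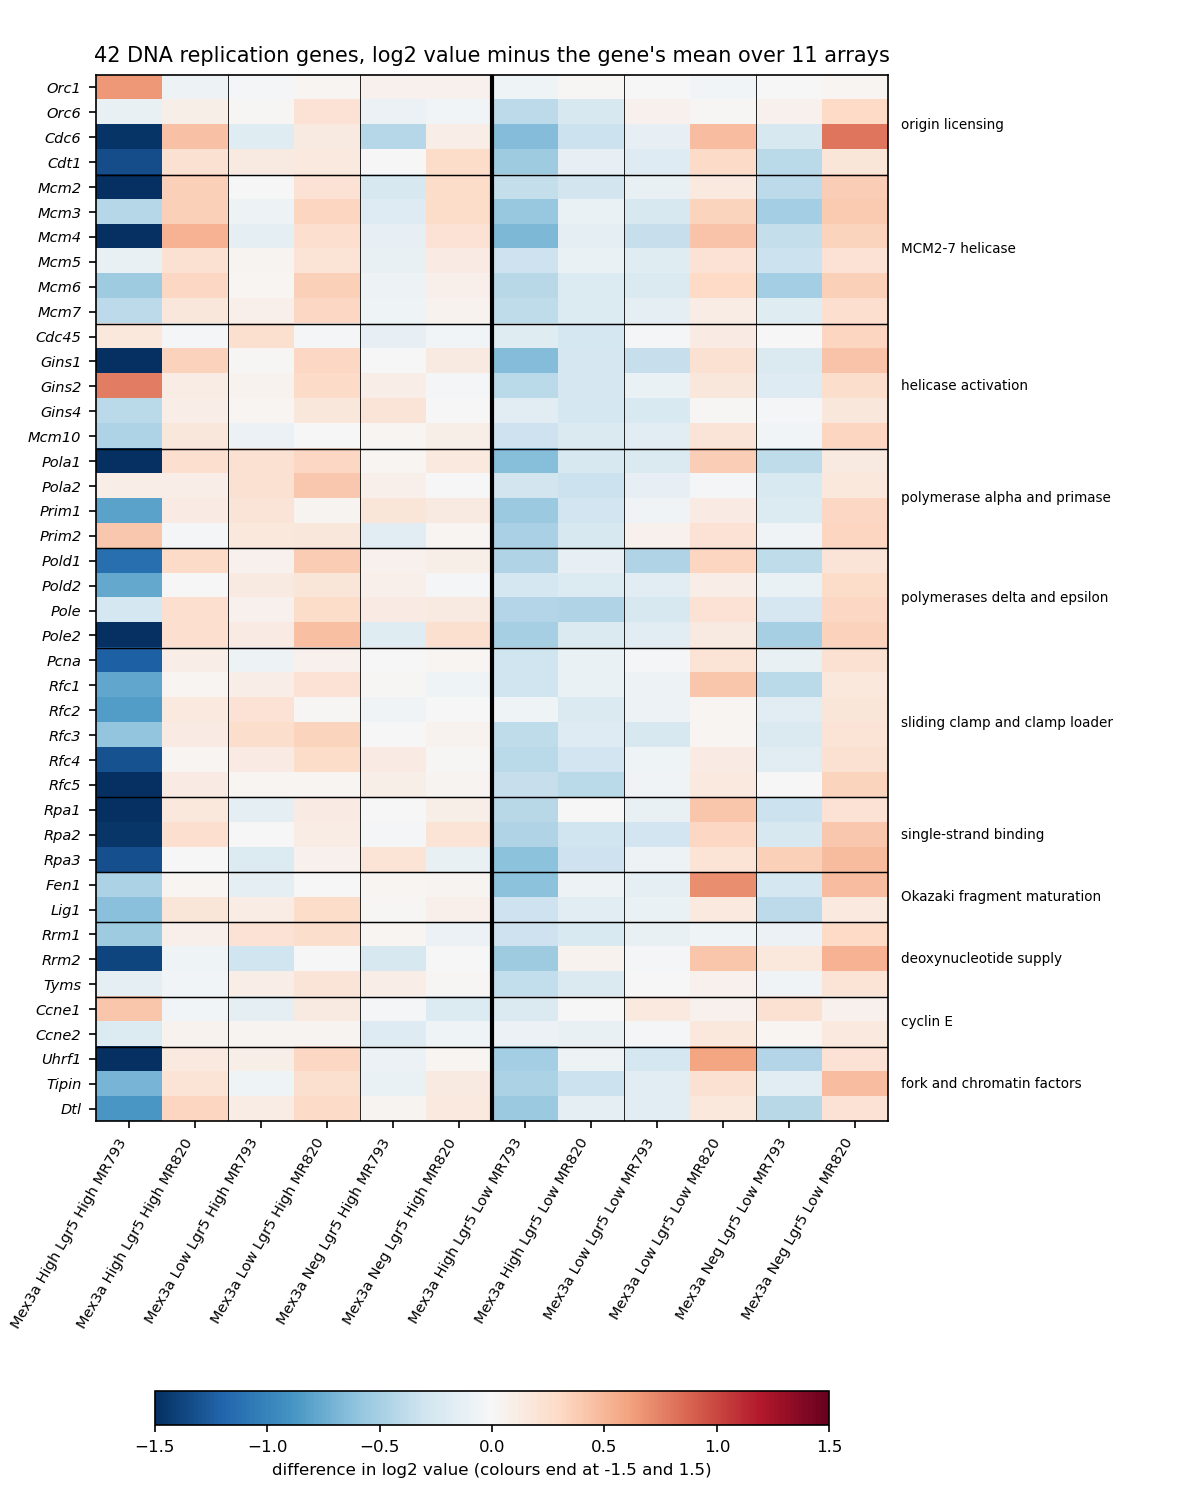
Log2 value of each member minus its mean over 11 arrays (colour), for 42 genes grouped by role (rows) and 12 arrays (columns, Lgr5 High populations left of Lgr5 Low). The outlying array, at the left, differs from all others in both directions, and most members are below their mean on the Mex3a High Lgr5 Low arrays.

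Within Lgr5 Low, the Mex3a High cells had the lowest replication gene values. Against Mex3a Neg, all 42 members had a negative difference, with a median of -0.32, where the median over all 17097 genes was -0.01. Against Mex3a Low, 41 of 42 had a negative difference, with a median of -0.35 and a median over all genes of -0.01. In 24 alternative settings of the fit the median over members stayed negative but varied in size. It lay between -0.57 and -0.12 against Mex3a Neg and between -0.51 and -0.16 against Mex3a Low. The median against Mex3a Neg was -0.24 over the 14 members with an E2F match, -0.38 over the 19 with a window and no match, and -0.39 over the 9 with no window. Against Mex3a Low it was -0.35, -0.36 and -0.39 over the same 3 sets. Both comparisons use the same Mex3a High arrays and are not independent of each other. In bulk RNA of a population, fewer cells in S phase and less replication RNA in each cell cannot be told apart.

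The direction was present in both replicates. Against Mex3a Neg, 35 of 42 members were lower in Mex3a High in MR793, with a median of -0.19 and both arrays on strip 3, and 42 of 42 in MR820, with a median of -0.48 and the arrays on strips 2 and 3. Against Mex3a Low, 40 were lower in MR793, with a median of -0.28 and both arrays on strip 3, and 41 in MR820, with a median of -0.41 and both arrays on strip 2. Members lower in both replicates numbered 35 against Mex3a Neg, where 35.0% of all genes were, and 39 against Mex3a Low, where 32.6% of all genes were. The difference from Mex3a Low was therefore present within a strip in each replicate. Of the 3 Lgr5 Low populations, Mex3a High was the lowest in both replicates for 33 of 42 members, against 22.1% of all genes, and the highest in both for 0 of 42, against 18.9%. The 9 members outside this pattern were Orc1, Mcm2, Mcm5, Mcm6, Gins4, Pole2, Rfc1, Rfc2 and Lig1.

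**Figure D3:**
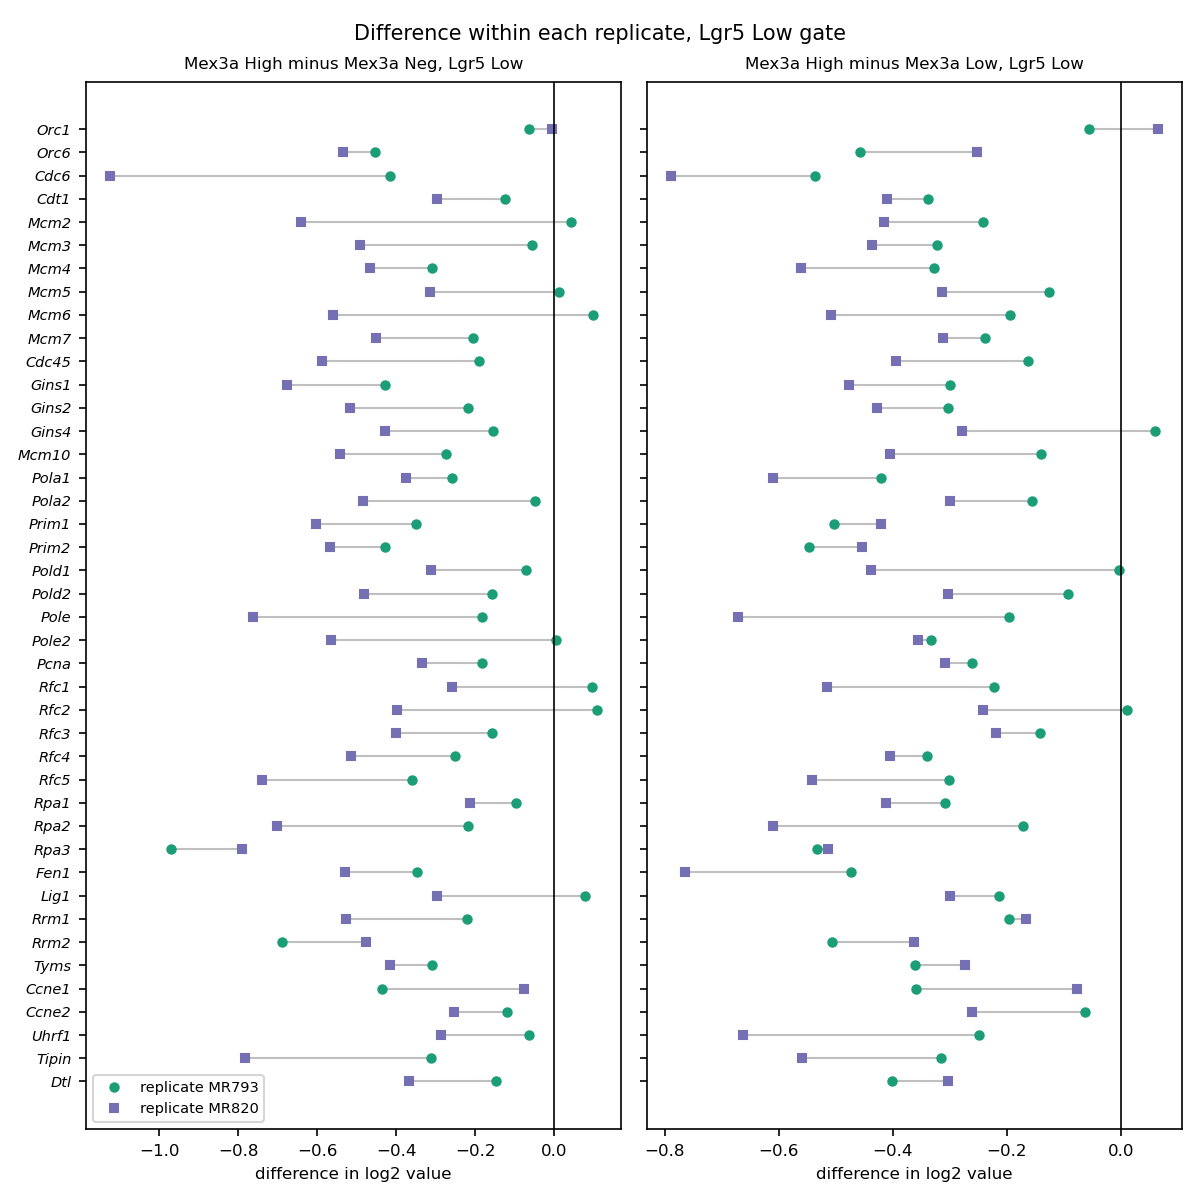
Difference in log2 value within each replicate (x axis; circles MR793, squares MR820) for the 42 members (rows, by role), between Mex3a High and Mex3a Neg (left) and between Mex3a High and Mex3a Low (right), Lgr5 Low. Nearly all points lie left of 0, and against Mex3a Neg most lie further left in MR820 than in MR793.

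A gene is called here when its limma p, adjusted over all genes by Benjamini-Hochberg, is under 0.05, and how many members were called depended on how the spread was estimated. On 12 arrays, limma called 0 of 42 members between Mex3a High and Mex3a Neg, where 1.73% of all genes were called, and 4 members had an unadjusted p under 0.05. On 11 arrays it called 2 members, both lower in Mex3a High, where 5.29% of all genes were called and 1.23% were called lower. Rpa3 and Rfc5 were those 2. Both were also called when the MR820 array of Mex3a High Lgr5 High was left out in place of the outlying one, where 5.31% of all genes were called. Leaving out either array removes that population from the estimate of the spread. The test of this comparison is then nearly the same, so the second set of calls is not separate support. With the replicate as a block on 11 arrays, a fit added after seeing the data, it called 11 members, all lower, where 11.9% of all genes were called and 5.26% were called lower. Against Mex3a Low, 0 members were called on 12 arrays (0.889% of all genes; 1 member at an unadjusted p under 0.05), 0 on 11 arrays (2.46% of all genes; 7 members) and 3 with the replicate block (5.23% of all genes), all 3 lower, where 0.918% of all genes were called lower. The differences themselves are the same in all 3 fits, which differ in their estimate of the spread. With the strip added to the replicate block, 2 members were called in each of the 2 comparisons, where 7.23% (against Mex3a Neg) and 5% (against Mex3a Low) of all genes were called.

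Among the licensing genes, Orc6, an origin recognition subunit, read 7.88 (MR793) and 8.03 (MR820) in Mex3a High, 8.34 and 8.29 in Mex3a Low, and 8.34 and 8.57 in Mex3a Neg. Both Mex3a High arrays were below all 4 others. Its difference from Mex3a Neg was -0.49 ± 0.13 on 11 arrays (SE; limma adjusted p = 0.0654) and passed the test with the replicate block (SE 0.11, adjusted p = 0.0160). Cdc6, the ATPase that helps load the helicase, read 6.76 and 7.10 in Mex3a High, 7.30 and 7.89 in Mex3a Low, and 7.18 and 8.22 in Mex3a Neg. Both Mex3a High arrays were below the 4 others, while Mex3a Low and Mex3a Neg overlapped, and Cdc6 differed between replicates by more than 1 unit in Mex3a Neg. It differed by -0.77 ± 0.17 against Mex3a Neg and by -0.66 ± 0.17 against Mex3a Low with the replicate block (limma adjusted p = 0.0126 and 0.0449), and was not called on 11 arrays without it (0.278 and 0.487). Cdt1, the partner of Cdc6 in loading, differed by -0.21 from Mex3a Neg and by -0.37 from Mex3a Low, and was not called in any of these 3 fits.

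The 6 subunits of the MCM helicase, the motor that unwinds DNA at the fork, were all lower in Mex3a High by 0.15 to 0.39 against Mex3a Neg and by 0.22 to 0.44 against Mex3a Low, and none was called by limma in these 3 fits (the smallest adjusted p was 0.0528, for Mcm7 against Mex3a Neg with the replicate block). Mcm4 had the largest of these differences in both. It read 8.25 and 8.79 in Mex3a High, 8.58 and 9.35 in Mex3a Low, and 8.56 and 9.26 in Mex3a Neg, so the groups overlapped while each replicate gave a lower value in Mex3a High. Against Mex3a Neg the difference of Mcm2 was 0.04 in MR793 and -0.64 in MR820, that of Mcm5 0.01 and -0.32, and that of Mcm6 0.10 and -0.56. For these 3 subunits the negative mean rests on MR820.

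Of the genes that turn the helicase on, Mcm10 read 9.07 and 9.16 in Mex3a High, 9.21 and 9.57 in Mex3a Low, and 9.34 and 9.71 in Mex3a Neg. Both Mex3a High arrays were below the 4 others, and Mex3a Low and Mex3a Neg overlapped. The difference from Mex3a Neg was -0.41 ± 0.15 on 11 arrays (SE; limma adjusted p = 0.199), and it was called with the replicate block (SE 0.11, adjusted p = 0.0347). Gins1, a GINS subunit, read 8.19 and 8.59 in Mex3a High, 8.49 and 9.07 in Mex3a Low, and 8.62 and 9.27 in Mex3a Neg, and was called against Mex3a Neg with the replicate block (-0.55 ± 0.13, limma adjusted p = 0.0202). Cdc45, Gins2 and Gins4, the other members of this step, differed by -0.39, -0.37 and -0.29 from Mex3a Neg and were not called.

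Polymerase alpha and its primase showed the pattern in all 4 subunits. Prim2, the large primase subunit, read 8.64 and 8.88 in Mex3a High, 9.19 and 9.34 in Mex3a Low, and 9.07 and 9.45 in Mex3a Neg. The Mex3a High arrays lay below the 4 others, which overlapped each other. It differed by -0.50 ± 0.11 against Mex3a Neg and by -0.50 ± 0.11 against Mex3a Low with the replicate block (limma adjusted p = 0.0126 and 0.0218), and had adjusted p = 0.108 and 0.176 on 11 arrays without it. Prim1, the catalytic primase subunit, read 9.28 and 9.55 in Mex3a High, 9.79 and 9.97 in Mex3a Low, and 9.63 and 10.15 in Mex3a Neg, and narrowly missed the threshold with the block (-0.48, adjusted p = 0.0517 against Mex3a Neg).

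No member of the polymerases delta and epsilon or of Okazaki fragment maturation was called in these 3 fits. Pole, the catalytic subunit of polymerase epsilon, read 7.61 and 7.60 in Mex3a High, 7.81 and 8.27 in Mex3a Low, and 7.80 and 8.36 in Mex3a Neg. Both Mex3a High arrays were lower than the 4 others, but the difference of -0.47 from Mex3a Neg was not called (adjusted p = 0.0712 with the replicate block). Lig1, the ligase that seals Okazaki fragments, read 10.68 and 10.83 in Mex3a High, 10.89 and 11.13 in Mex3a Low, and 10.60 and 11.13 in Mex3a Neg, so that Mex3a High and Mex3a Neg overlapped. Fen1, the nuclease that trims the fragments before ligation, read 5.77 and 6.31 in Mex3a High, 6.24 and 7.08 in Mex3a Low, and 6.12 and 6.84 in Mex3a Neg. Its groups overlapped across replicates, and its differences of -0.44 from Mex3a Neg and -0.62 from Mex3a Low were not called (limma adjusted p = 0.178 and 0.0904 with the replicate block).

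In the clamp loader, Rfc5 was lower on both Mex3a High arrays than on the 4 others. It read 8.42 and 8.37 in Mex3a High, 8.72 and 8.91 in Mex3a Low, and 8.78 and 9.11 in Mex3a Neg. It fell in Mex3a High against Mex3a Neg by 0.55 on 11 arrays (SE 0.13, limma adjusted p = 0.0476) and with the replicate block (SE 0.12, adjusted p = 0.0128), and was not called on 12 arrays (SE 0.50). On the outlying array Rfc5 read 6.85, against 8.89 in the other array of that population. Rfc4 was also called against Mex3a Neg with the block (-0.38 ± 0.11, adjusted p = 0.0473), while Pcna, the clamp itself, differed by -0.26 ± 0.08 and was not (adjusted p = 0.0511). Rfc1 and Rfc2 had differences of opposite sign in the replicates against Mex3a Neg, 0.10 in MR793 and -0.26 in MR820 for Rfc1, and 0.11 and -0.40 for Rfc2.

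Rpa3, the small subunit of the RPA complex that covers single-stranded DNA, had the largest difference of all members from Mex3a Neg. It read 7.46 and 7.76 in Mex3a High, 7.99 and 8.27 in Mex3a Low, and 8.43 and 8.55 in Mex3a Neg. The 3 populations did not overlap and stood in that order in both replicates. Rpa3 fell in Mex3a High against Mex3a Neg by 0.88 (SE 0.17 and limma adjusted p = 0.0193 on 11 arrays; SE 0.15 and adjusted p = 0.0036 with the replicate block; SE 0.37 and adjusted p = 0.676 on 12 arrays). Rpa1 and Rpa2, its larger partners, differed by -0.15 and -0.46 and were not called in these fits.

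The genes of deoxynucleotide supply were lower as well. Tyms, thymidylate synthase, read 10.71 and 10.87 in Mex3a High, 11.07 and 11.14 in Mex3a Low, and 11.02 and 11.29 in Mex3a Neg. Mex3a High lay below both other gates, which overlapped each other. Tyms was called against Mex3a Neg with the replicate block (-0.36 ± 0.08, limma adjusted p = 0.0163; 0.0831 on 11 arrays without it). Rrm2, the regulatory subunit of ribonucleotide reductase that is made in S phase, read 8.91 and 9.49 in Mex3a High, 9.42 and 9.86 in Mex3a Low, and 9.60 and 9.97 in Mex3a Neg. Its values overlapped between Mex3a High and Mex3a Low across replicates but not within either. With the block Rrm2 differed by -0.58 ± 0.10 against Mex3a Neg and by -0.43 ± 0.10 against Mex3a Low (limma adjusted p = 0.0040 and 0.0338), and without it on 11 arrays the adjusted p were 0.219 and 0.504.

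Of the remaining roles, Tipin, a fork protection factor, read 7.73 and 7.88 in Mex3a High, 8.05 and 8.44 in Mex3a Low, and 8.04 and 8.67 in Mex3a Neg, and was called against Mex3a Neg with the replicate block (-0.55 ± 0.13, limma adjusted p = 0.0181). Dtl, which directs Cdt1 to degradation, read 8.67 and 9.08 in Mex3a High, 9.07 and 9.38 in Mex3a Low, and 8.81 and 9.45 in Mex3a Neg, with overlap and no call. Uhrf1, which carries DNA methylation through replication, differed by -0.18 from Mex3a Neg and by -0.46 from Mex3a Low without a call. The cyclin E genes, whose kinase drives entry into S phase, were not called: Ccne1 differed by -0.26 and -0.22, and the dim Ccne2, at 4.10 and 4.08 in Mex3a High, 4.17 and 4.35 in Mex3a Low, and 4.22 and 4.34 in Mex3a Neg, by -0.19 and -0.16.

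Within Lgr5 Low, nearly all other probe sets of the members gave the same direction for Mex3a High. For 23 members there were further probe sets, 30 in all, and 29 of 30 were lower in Mex3a High against Mex3a Neg and 29 of 30 against Mex3a Low. Among the 21 of them above the median of all genes, 21 were lower in both comparisons.

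Between Mex3a Low and Mex3a Neg in the Lgr5 Low gate, the replication genes showed no common direction. The median difference was -0.03, with 17 of 42 members positive. It was 0.06 in MR793, with 27 members positive, and -0.11 in MR820, with 10 positive; the arrays lay on strip 3 in MR793 and on strips 2 and 3 in MR820. limma called 0 members on 12 arrays, on 11 arrays and with the replicate block, where 0.0468%, 0.0936% and 0.333% of all genes were called, and 0, 0 and 1 members had an unadjusted p under 0.05. Rpa3 had the largest difference, -0.36 ± 0.17 on 11 arrays (SE; adjusted p = 0.997). In this comparison 4 of 7 tuft (median 2.65), 1 of 11 enteroendocrine (1.49) and 1 of 3 Paneth markers (1.96) were called higher in Mex3a Low on 12 arrays.

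Other genes of the cell cycle were lower in the same Lgr5 Low population. Of 32 other measured replication genes, 31 were lower in Mex3a High against Mex3a Neg (median -0.33), and 4 were called lower on 11 arrays and 11 with the replicate block. Dbf4, the activator of the Cdc7 kinase that fires origins, fell by 0.85 (SE 0.28 on 12 arrays, where it was not called; limma adjusted p = 0.0269 on 11 arrays and 0.0088 with the block), and Dck, deoxycytidine kinase, fell by 0.73 (adjusted p = 0.0221 and 0.0079). Of 24 measured E2F and G1/S regulators, 21 were lower (median -0.25), 1 was called lower on 11 arrays and 6 with the block, and Ccna2, the cyclin of S phase, fell by 0.42 (adjusted p = 0.0178 and 0.0045). All 29 measured mitosis genes were lower (median -0.57), 13 called on 11 arrays and 24 with the block, and Hmmr, a spindle protein, fell by 0.95 (adjusted p = 0.0143 and 0.0028). These counts stand beside 1.23% of all genes called lower on 11 arrays and 5.26% with the block. On 12 arrays limma called 0 genes of the 3 lists, where 1.73% of all genes were called, and 5, 3 and 14 had an unadjusted p under 0.05 (adjusted p = 0.350 for Dbf4, 0.743 for Dck, 0.217 for Ccna2 and 0.496 for Hmmr).

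The CDK inhibitors did not follow as a list, with 4 of 7 higher and 3 lower in Mex3a High against Mex3a Neg. Cdkn1c, which encodes p57, rose in Mex3a High by 4.00 against Mex3a Neg and by 2.43 against Mex3a Low, and was called in all 3 fits (SE 0.27, limma adjusted p = 4.9e-05 and 0.0031 on 12 arrays). It read 9.40 and 9.33 in Mex3a High, 7.41 and 6.47 in Mex3a Low, and 5.30 and 5.42 in Mex3a Neg, a graded order in both replicates. Cdkn1a, which encodes p21, read 11.73 and 11.58, 10.72 and 9.69, and 10.45 and 8.84 in those populations, and was called with the replicate block (2.01 ± 0.31 against Mex3a Neg, adjusted p = 0.0021).

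Tuft and enteroendocrine markers moved with the same gates. The mean of 7 measured tuft cell markers was 10.60 and 10.53 in Mex3a High, 8.65 and 7.71 in Mex3a Low, and 5.71 and 5.71 in Mex3a Neg. All 7 were called higher in Mex3a High against Mex3a Neg in each of the 3 fits, among them Dclk1, at 11.64 and 11.81 in Mex3a High, 9.59 and 8.48 in Mex3a Low, and 5.27 and 5.63 in Mex3a Neg. The mean of 11 enteroendocrine markers was 10.22 and 10.06 in Mex3a High, 8.85 and 7.91 in Mex3a Low, and 6.57 and 6.22 in Mex3a Neg, with 10 of 11 called on 12 arrays and 11 of 11 on 11 arrays. All 3 measured Paneth markers had a positive difference (median 2.95), with 2 called on 12 arrays and 3 in the other 2 fits. The 7 measured goblet markers had 3 positive and 4 negative differences (median -0.03), with 0, 0 and 2 called higher in the 3 fits. The mean of 8 enterocyte markers was 11.09 and 11.02 in Mex3a High, 10.88 and 10.31 in Mex3a Low, and 11.59 and 9.83 in Mex3a Neg. The mean of 11 stem cell markers was 9.29 and 9.18, 9.01 and 9.30, and 8.71 and 9.34 in those populations. For both lists the order of the Mex3a gates differed between the replicates. Mex3a Low held intermediate tuft and enteroendocrine values. The part of these cell types in the lower replication values was not tested. Immune markers averaged 6.75 and 6.79 in Mex3a High, 6.47 and 6.43 in Mex3a Low, and 6.00 and 6.24 in Mex3a Neg, with 2 of 7 called higher in Mex3a High against Mex3a Neg in each fit, and mesenchymal and endothelial markers averaged 5.37 to 5.43 over these 6 arrays with none called.

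**Figure D4:**
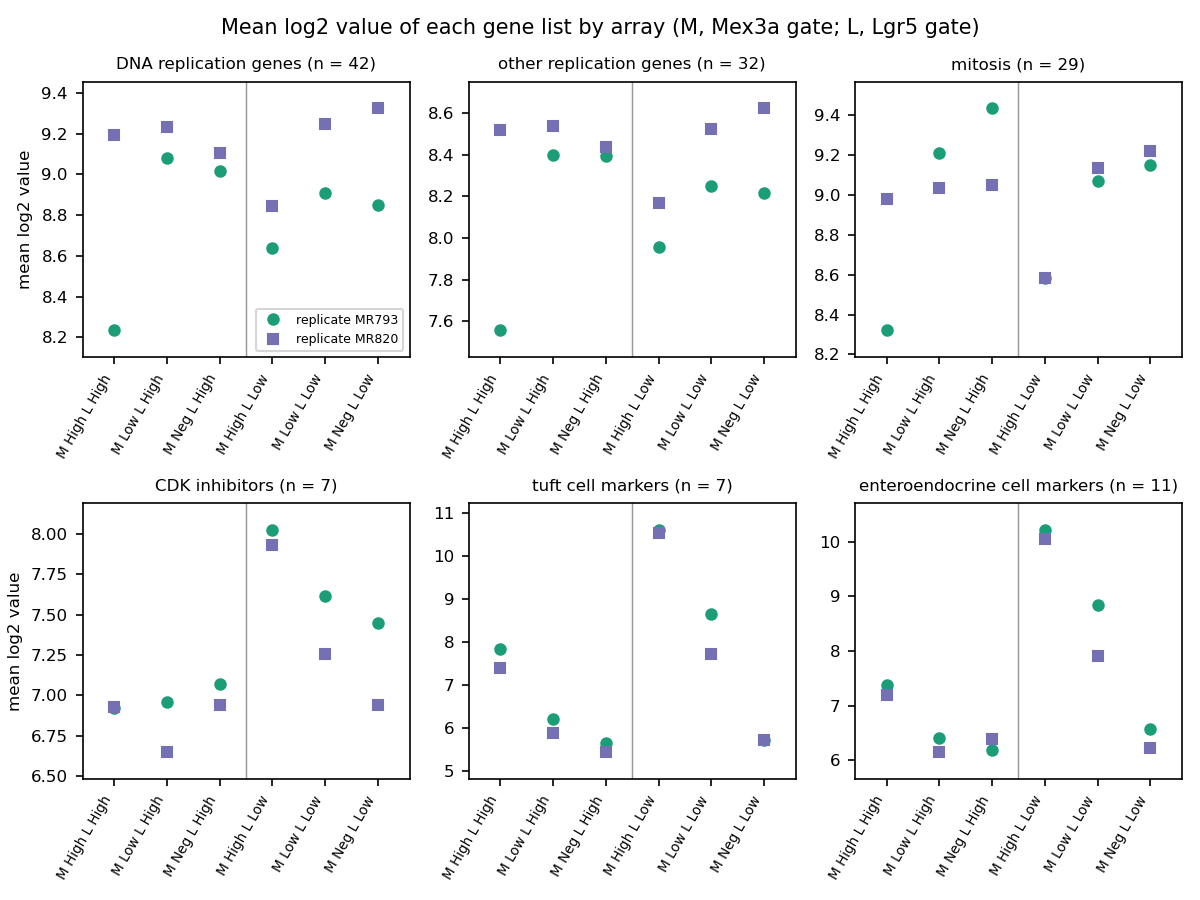
Mean log2 value of 6 gene lists on each array (y axis; circles MR793, squares MR820) by population (x axis; M is the Mex3a gate, L the Lgr5 gate, Lgr5 High left of the line). Within Lgr5 Low, Mex3a High has the lowest means of the DNA replication, other replication and mitosis lists and the highest means of the CDK inhibitor, tuft and enteroendocrine lists; the lowest DNA replication mean, 8.23, is the outlying array.

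In the Lgr5 High gate the comparison of Mex3a High with the other gates rests on the outlying array. Against Mex3a Neg, the median difference of the members was -0.30 on 12 arrays, with 9 of 42 positive, and 0.11 on 11 arrays, with 34 positive. With the replicate block on 11 arrays it was 0.01, with 23 positive. The 0.11 sets MR820 alone against both replicates of Mex3a Neg, so it also holds the shift between replicates. Within MR793, which holds the outlying array, the median was -0.72 and single members ranged between -2.45 and 0.67, while within MR820 the median was 0.09 and members ranged between -0.14 and 0.34. The MR793 values depend in part on the probe set used. Mcm2 read 7.47 on the outlying array and 9.31 in Mex3a Neg, but 8.94 and 8.37 by its other probe set. Gins2 read 10.76 and 10.09, but 8.57 and 9.17 by its other. In Rfc4 both probe sets were lower on the outlying array, 8.60 against 10.02 and 4.51 against 7.81. Both arrays of the pair lay on strip 1 in MR793 and on strip 2 in MR820. limma called 0 members in the 3 fits, where 0%, 0.0175% and 0.0819% of all genes were called, and 0, 0 and 0 members had an unadjusted p under 0.05. Without the MR820 array, which leaves the outlying array alone for that population, 30 members and 62.3% of all genes were called. Over all genes the median was 0.16 in MR793 and 0.00 in MR820. Cdc6 had the largest difference on 11 arrays, 0.60, where it was 0.34 within MR820 and -0.35 ± 0.57 (SE) on 12 arrays.

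Against Mex3a Low in the Lgr5 High gate the median was -0.46 on 12 arrays, 0.02 on 11 arrays and -0.09 with the replicate block, with 4, 23 and 9 of 42 members positive. Within MR793 it was -0.87 with 4 positive, and within MR820 -0.05 with 17 positive. The difference was negative in both replicates for 21 members, against 15.0% of all genes, where against Mex3a Neg it was for 5 members and 15.1% of all genes. In MR793 the sign rests on the outlying array, with 38 members negative against Mex3a Low and 35 against Mex3a Neg. The median over all genes there was 0.16 in both comparisons. In MR820, 25 and 7 members were negative, so these counts are not read as agreement between replicates. The arrays lay on strip 1 in MR793 and on strips 2 and 1 in MR820. Mcm4 read 6.34 and 9.44 in Mex3a High, 8.78 and 9.17 in Mex3a Low, and 8.79 and 9.14 in Mex3a Neg. Its lowest and its highest value of the gate thus came from the 2 arrays of 1 population. limma called 0 members in the 3 fits, where 0%, 0.00585% and 0.0117% of all genes were called, and 1, 0 and 1 members had an unadjusted p under 0.05. With the outlying array alone for Mex3a High, 30 members and 60.7% of all genes were called. Markers of other cell types moved with these 2 comparisons. The mean of the tuft markers was 7.82 and 7.39 in Mex3a High, 6.20 and 5.87 in Mex3a Low, and 5.65 and 5.44 in Mex3a Neg of this gate. All 7 were positive in both comparisons on 12 arrays (medians 2.05 against Mex3a Neg and 1.55 against Mex3a Low), with 0 called by limma and 6 at an unadjusted p under 0.05 in each. The 3 Paneth markers were positive too (medians 1.20 and 0.38), while the 8 enterocyte markers were all negative against Mex3a Neg (median -0.77) and 5 of 8 positive against Mex3a Low. On the outlying array the mean of the 8 mesenchymal and endothelial markers was 6.07, against 5.36 to 5.50 on the other 11, with Col1a1 at 7.32 and Pecam1 at 6.14, and the mean of the immune markers was 6.92, against 6.00 to 6.79. The part of these markers in the replication values was not tested.

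Mex3a Low had slightly higher values than Mex3a Neg in the Lgr5 High gate, without a call. The median was 0.11 with 31 of 42 members positive, 0.06 in MR793 (28 positive) and 0.14 in MR820 (33 positive), with both arrays on strip 1 in MR793 and the arrays on strips 1 and 2 in MR820. With the strip added to the replicate block on 11 arrays the median was -0.03, with 16 positive. In 24 of 42 members the difference was positive in both replicates, against 28.4% of all genes. limma called 0 members in the 3 fits, where 0%, 0% and 0.0234% of all genes were called, and 0, 0 and 3 members had an unadjusted p under 0.05. Pola2, the accessory subunit of polymerase alpha, had the largest difference on 11 arrays, 0.28 ± 0.15 (SE; adjusted p = 1.00), at 8.19 and 8.37 in Mex3a Low and 8.04 and 7.96 in Mex3a Neg. All 8 measured enterocyte markers were lower in value in Mex3a Low (median -1.99), and all 3 Paneth markers (median 1.00) and all 7 tuft markers (median 0.50) were higher in value. None of these was called on 12 or on 11 arrays, and 1 Paneth marker was with the replicate block. At an unadjusted p under 0.05 there were 6, 6 and 7 enterocyte, 3, 3 and 3 Paneth and 0, 1 and 4 tuft markers in the 3 fits. Their part in the replication values was not tested.

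**Figure D5:**
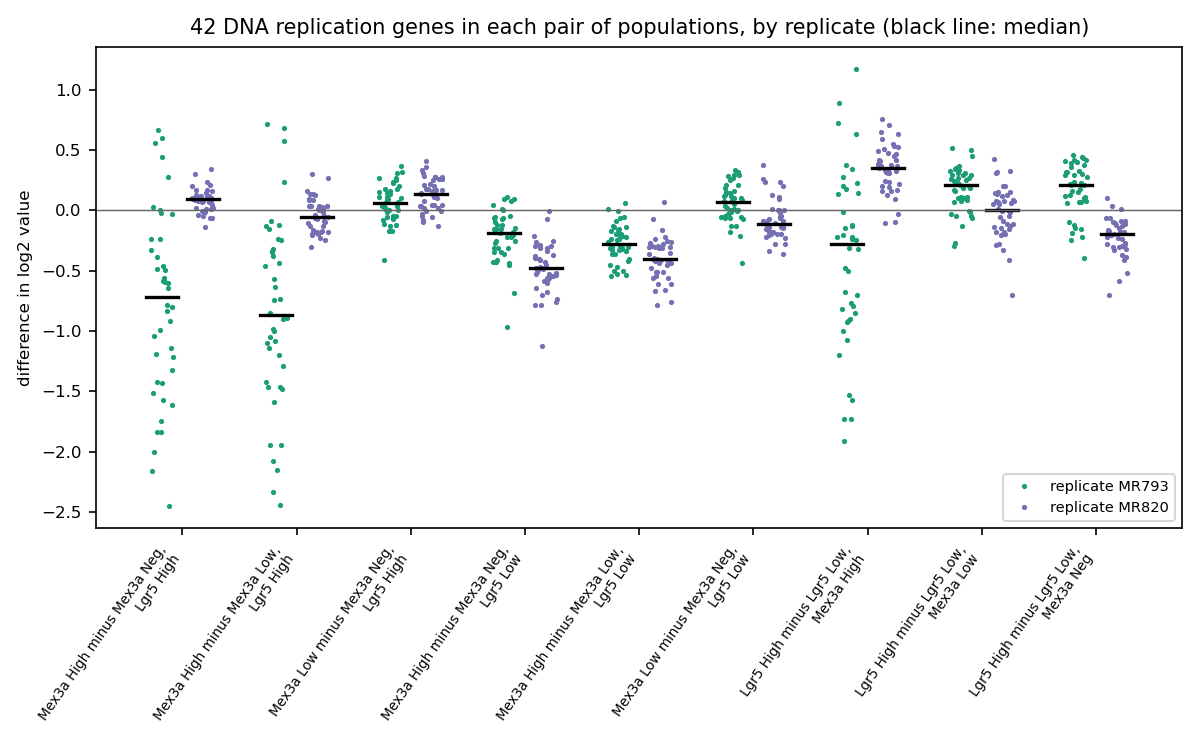
Difference in log2 value of each of the 42 members (points) within MR793 (left of each pair) and MR820 (right), for 9 pairs of populations (x axis); black lines are medians. The pairs that hold the outlying array spread between about -2.45 and 1.17, and in Lgr5 Low 35 and 39 of the 42 members lie below 0 in both replicates for Mex3a High against Mex3a Neg and against Mex3a Low.

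Between the Lgr5 gates, the Mex3a High populations differed most on 11 arrays. The members had a median difference of 0.43 (Lgr5 High minus Lgr5 Low), with 41 of 42 positive, on 11 arrays, 0.34 with 40 positive with the replicate block, and 0.03 with 23 positive on 12 arrays. On 11 arrays without the block, Lgr5 High is MR820 alone and Lgr5 Low is both replicates. The median of 0.43 therefore also holds the shift between replicates. The pair in MR820, both arrays on strip 2, gave a median of 0.35 with 39 positive. In MR793 the pair holds the outlying array, on strip 1 against strip 3, and gave -0.28 with 12 positive. limma called 0 members on 12 arrays and on 11 arrays and 1 with the block, where 1.37%, 2.27% and 4.32% of all genes were called, and 2, 10 and 21 members had an unadjusted p under 0.05. With the outlying array alone for Mex3a High Lgr5 High, 21 members and 63.6% of all genes were called, and with the strip added to the block 0 members were, with 20 at an unadjusted p under 0.05 and 3.52% of all genes called. Markers moved with this contrast as well. On 12 arrays 7 of 7 tuft markers (median -2.97) and 7 of 11 enteroendocrine markers (median -3.16) were called lower in Lgr5 High, and on 11 arrays 7 and 8 were; their part in the replication values was not tested.

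The member called was Mcm4, which read 6.34 and 9.44 in Lgr5 High and 8.25 and 8.79 in Lgr5 Low within Mex3a High. With the replicate block it differed by 0.65 (SE 0.15, limma adjusted p = 0.0431). It differed by 0.92 ± 0.39 on 11 arrays (adjusted p = 0.347) and by -0.63 ± 0.79 on 12 arrays, where the sign is the opposite. Without the outlying array the Lgr5 High side is the 1 array of MR820, with an SE taken from the other populations, and with the strip added to the block Mcm4 was not called, so no direction is drawn from this call. Cdc6 differed by 0.92 ± 0.42 on 11 arrays (adjusted p = 0.384) and by 0.65 ± 0.21 with the block (0.135), at 5.95 and 7.86 in Lgr5 High. Pole, the catalytic subunit of polymerase epsilon, read 7.79 and 8.31 in Lgr5 High and differed by 0.70 ± 0.25 on 11 arrays (adjusted p = 0.259).

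Within Mex3a Low the members differed little between the Lgr5 gates, with a median of 0.09 and 31 of 42 positive. The median was 0.21 in MR793, on strips 1 and 3, and 0.00 in MR820, on strips 1 and 2. With the strip added to the replicate block it was -0.10, with 13 positive. limma called 0 members in the 3 fits, where 0.0468%, 0.164% and 2.67% of all genes were called, and 0, 3 and 5 members had an unadjusted p under 0.05. Rfc3, a clamp loader subunit, had the largest difference on 11 arrays, 0.40 ± 0.15 (SE; adjusted p = 0.335), at 10.20 and 10.27 in Lgr5 High and 9.70 and 9.96 in Lgr5 Low. Of the marker lists, 7 of 7 tuft (median -2.22), 11 of 11 enteroendocrine (-1.68), 8 of 8 enterocyte (-2.08) and 7 of 7 goblet markers (-1.42) were lower in value in Lgr5 High, and 11 of 11 stem cell markers were higher (0.86). On 12 arrays 4 tuft and 1 enteroendocrine marker were called, and with the replicate block 5 tuft, 7 enteroendocrine, 6 enterocyte, 5 goblet and 7 stem cell markers were. Their part in the replication values was not tested.

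Within Mex3a Neg the replicates disagreed. The median was 0.02 over both, 0.21 in MR793 with 34 of 42 positive, on strips 1 and 3, and -0.20 in MR820 with 3 positive, on strips 2 and 3. limma called 0 members on 12 and on 11 arrays and 1 with the replicate block, where 0%, 0.0585% and 2.11% of all genes were called, and 0, 1 and 4 members had an unadjusted p under 0.05. The member called was Rrm2, which read 9.21 and 9.45 in Lgr5 High and 9.60 and 9.97 in Lgr5 Low. It fell in Lgr5 High by 0.46 with the block (SE 0.10, adjusted p = 0.0476), and was lower in both replicates. With the strip added to the block it was not called, where 0.146% of all genes were, and the median over members was -0.09. All 7 goblet markers were lower in value in Lgr5 High (median -1.04) and all 11 stem cell markers (0.99) and 3 Paneth markers (0.88) higher, with 4, 8 and 1 of them called with the block; their part in the replication values was not tested.

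Averaged over the 3 Mex3a gates, the Lgr5 High populations had a median difference of 0.03 from Lgr5 Low on 12 arrays, 0.18 on 11 arrays and 0.15 with the replicate block, with 23, 37 and 36 of 42 members positive. limma called 0, 0 and 3 members, where 1.38%, 5.12% and 11.4% of all genes were called, and 1, 7 and 19 members had an unadjusted p under 0.05. With the outlying array alone for its population 12 members and 54.5% of all genes were called. With the strip added to the block 0 members were called, with 5 at an unadjusted p under 0.05 and 0.86% of all genes called. With the block Rfc3 rose by 0.25 (SE 0.06, adjusted p = 0.0309), Dtl rose by 0.30 (SE 0.08, adjusted p = 0.0341), and Rrm2 fell by 0.27 (SE 0.06, adjusted p = 0.0210). On the Lgr5 High arrays Dtl read 8.35 and 9.55 in Mex3a High, 9.33 and 9.51 in Mex3a Low, and 9.27 and 9.38 in Mex3a Neg. Rrm2 thus differed in direction from most members between the Lgr5 gates, but was not alone in this. Cdc6 and Rpa3 were also lower in Lgr5 High in both replicates within Mex3a Low and within Mex3a Neg. Pola1, the catalytic subunit of polymerase alpha, had the largest difference on 11 arrays, 0.37 ± 0.15 (adjusted p = 0.199), and Lig1 differed by 0.25 ± 0.10 (adjusted p = 0.202). Markers of other cell types moved with this contrast too. On 11 arrays 7 of 7 tuft, 9 of 11 enteroendocrine and 6 of 7 goblet markers were called lower in Lgr5 High, and 10 of 11 stem cell markers were called higher. The 3 Paneth markers had a median difference of 0.41, all positive, with 1 called. Their part in the replication values was not tested.

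Whether the Mex3a difference itself differed between the Lgr5 gates was tested as an interaction. The median over members, the Mex3a High minus Mex3a Neg difference in Lgr5 High minus that in Lgr5 Low, was 0.03 on 12 arrays, 0.44 on 11 arrays and 0.32 with the replicate block, with 22, 41 and 41 of 42 positive. The 0.44 also holds the shift between replicates, since Mex3a High Lgr5 High is then the MR820 array alone. limma called 0 members in the 3 fits, where 0.398%, 0.936% and 1.81% of all genes were called, and 1, 7 and 13 members had an unadjusted p under 0.05. With the outlying array alone for its population 17 members and 48.6% of all genes were called. Cdc6 had the largest value, 1.37 ± 0.54 on 11 arrays (SE; adjusted p = 0.473) and 1.09 ± 0.27 with the block (adjusted p = 0.0793). Ccne2, with 3.98 and 4.24 in Mex3a High and 4.00 and 4.13 in Mex3a Neg of the Lgr5 High gate, gave 0.36 ± 0.12 on 11 arrays (adjusted p = 0.335). No member was thus shown to respond differently to the Mex3a gate in the 2 Lgr5 gates.

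The members also differed between the replicates. MR820 read higher than MR793 in 36, 39 and 30 of 42 members in Mex3a High, Mex3a Low and Mex3a Neg of the Lgr5 High gate, and in 35, 39 and 41 in Mex3a High, Mex3a Low and Mex3a Neg of the Lgr5 Low gate. The medians of MR820 minus MR793 were 0.83, 0.16 and 0.06 in Lgr5 High, of which the first includes the outlying array, and 0.19, 0.28 and 0.49 in Lgr5 Low. Medians over all genes were -0.17 in Mex3a High Lgr5 High and between -0.01 and 0.02 in the other 5 populations. Beside these, the median differences of Mex3a High from Mex3a Neg and Mex3a Low in the Lgr5 Low gate were -0.32 and -0.35.

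The members varied together across arrays. The mean correlation between pairs of members over 11 arrays was 0.690, against 0.0099 between pairs over all genes, and it was 0.653 after the mean of each replicate was removed, against 0.0109. Gins2, Rfc4 and Gins1 followed the mean of the other members most closely (r = 0.965, 0.961 and 0.955). The value over all genes is a signed mean, in which positive and negative pairs offset each other, and no other gene list was compared. These arrays share replicates and populations, so the values are a description.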

How the data were processed

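Expression was measured on 12 Affymetrix arrays, 1 for each of 6 populations in each of 2 biological replicates, from 2000 cells and 22 cycles of amplification per sample per the labels' protocols. Each deposited number is a log2 intensity summary of a probe set. RMA is the method named in the submitters' processing notes, with no version. The table holds 45141 probe sets, of which 28898 name 1 gene. The brightest of these over the 12 arrays stood for its gene, which gave 17097 genes and all 42 members.

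Each gene was fitted with limma 3.58.1 (R 4.3.3) as 6 population means, with moderated variances that follow a trend on expression (eBayes, 6 residual degrees of freedom on 12 arrays). Before use, the fit was run on simulated data to check that it returned known differences between Mex3a High and Mex3a Neg in Lgr5 Low. Those data held no outlying array and no shift between replicates, so they do not test the p-values under these features. Adjusted p is by Benjamini-Hochberg over the 17097 genes of a comparison, and a gene with an adjusted p under 0.05 was called. The fit was repeated without 1 outlying array (11 arrays) and, as a choice made after seeing the data, on those 11 arrays with the replicate as a block. The labels give all 6 populations of a replicate the same biological identifier, so the replicates pair the arrays. Their deviations correlated at over 0.1 in 14 of 15 pairs of populations (lowest -0.12, median 0.38) and in 10 of 10 without the outlying array. Other alternatives were the strip as a block, array weights, renormalization, another choice of probe set, dim genes left out, 1 Lgr5 gate at a time and each array left out.

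Values are given by array for the member of each role with the smallest p on 11 arrays. Members called in any of the 3 fits are named with their tests, at most 10 by smallest p where more were called on 12 or 11 arrays, and otherwise the member with the largest difference on 11 arrays. The members and the other gene lists were chosen with earlier results of these data known. Promoter windows of RefSeq (GRCm38.p6) were matched by symbol and searched on both strands with Python 3.11.15.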

Additional observations from a re-analysis of the deposited data

How the results depend on the processing

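In the comparison of Mex3a High with Mex3a Neg in Lgr5 Low, 0 members were called on 12 arrays, 1 with array weights, 1 with the arrays of the Lgr5 Low gate alone, 11 with the replicate block on 11 arrays and 2 with the strip added to it. The share of all genes called with array weights or with that gate alone is not given here. Those counts are therefore not read as a result about the members. Leaving out each array in turn gave 0 to 2, with 2 (Rpa3 and Rfc5) both without the outlying array and without the MR820 array of the same population, and 0 without any of the other 10. The first 2 of these settings give nearly the same test here, because either one removes that population from the estimate of the spread. For the other 10 arrays left out, the share of all genes called is not given here. Their counts of 0 are therefore not read as a result about the members. Against Mex3a Low the replicate block on 11 arrays gave 3 and with the strip 2. Between the Lgr5 gates the replicate block on 11 arrays gave 1 member in Mex3a High, 1 in Mex3a Neg and 3 in the mean of the gates. On 12 arrays the replicate block called 0 members in all 11 comparisons, and the share of all genes called in that fit is not given here. Results that hold the Mex3a High Lgr5 High population turned on which of its 2 arrays was left out. Without the MR820 array and without the outlying array the counts called were 30 and 0 for Mex3a High against Mex3a Neg, 30 and 0 against Mex3a Low, 21 and 0 between Lgr5 gates in Mex3a High, 12 and 0 in the mean of the gates, and 17 and 0 for the interaction. The signs of single genes turned with it. Left out one at a time, the arrays gave Cdc6 -1.31 to 0.60 (Mex3a High minus Mex3a Neg, Lgr5 High), -0.98 to 0.92 (Lgr5 High minus Lgr5 Low, Mex3a High) and -0.54 to 1.37 (interaction), Mcm4 -2.64 to 0.46 (Mex3a High minus Mex3a Low, Lgr5 High) and -2.18 to 0.92 (Lgr5 High minus Lgr5 Low, Mex3a High), and in the mean of the gates Dtl -0.043 to 0.36, Pola1 -0.29 to 0.37 and Lig1 -0.018 to 0.25. On 11 arrays with the replicate block, and with the strip added, the values were 0.32 and 0.34 for Cdc6 against Mex3a Neg, 0.65 and 0.70 for Cdc6 between Lgr5 gates, 0.19 and 0.39 for Mcm4 against Mex3a Low, and 0.65 and 0.59 for Mcm4 between Lgr5 gates. The strip as a block on 12 arrays, with or without the replicate, gave 0.35 for Cdc6 between Lgr5 gates. The cause of these changes was not tested beyond leaving out the arrays.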

Other observations

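In the Lgr5 High gate, of 29 measured mitosis genes, 25 were lower in Mex3a High than in Mex3a Neg on 12 arrays, 28 on 11 arrays and 28 with the replicate block, with medians of -0.55, -0.27 and -0.21. The replication genes had medians of -0.30, 0.11 and 0.01 in the same fits. On 11 arrays Mex3a High is the MR820 array alone, while Mex3a Neg is both replicates. Within MR820 the mean of the mitosis genes was 8.98 in Mex3a High and 9.05 in Mex3a Neg. Within MR793 it was 8.32 on the outlying array and 9.43 in Mex3a Neg. The mean of the replication genes within MR820 was 9.19 in Mex3a High and 9.10 in Mex3a Neg. None of the mitosis genes was called by limma in these 3 fits, and the difference between the lists was not tested.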
